A study of Mus musculus with 23 samples.

Results

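The genes described here are the SMAD transcription factors and the SMURF ubiquitin ligases, taken as the rows of the expression table whose symbol is Smad1, Smad2, Smad3, Smad4, Smad5, Smad6, Smad7, Smad9, Smurf1 or Smurf2. All 10 symbols were found once each among the 35322 gene rows, and all 10 passed the filter on low values that left 16795 genes for testing. The data are poly(A) RNA-seq of lung from female Balb/c offspring at 13 weeks of age, one library per sample and 23 libraries in all. The study asked whether a mother's exposure to fine particulate matter (PM2.5) alters how the lung of the grown offspring responds to an allergen.

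There were 4 groups. Sham offspring (n = 7) came from dams given saline by the intranasal route and were not challenged with allergen. PM offspring (n = 7) came from dams given roadside PM2.5 by the same route before mating, through gestation and until weaning, and were likewise not challenged; the offspring themselves received no PM2.5. Sham-OVA (n = 5) and PM-OVA (n = 4) offspring had the same mothers' treatments and were sensitised with ovalbumin (OVA), an egg protein used to set up allergic airway disease in mice, and then breathed nebulised OVA. Unchallenged animals are labelled PBS by the depositors and described as breathing nebulised saline in the methods. Whether they had also been sensitised with OVA is not clear from the methods. Here they are called saline animals. All groups were Balb/c, without engineered alleles, and all lungs had gone through a lung function test with nebulised methacholine before RNA was taken. The methods place airway lavage straight after that test. The piece of lung is labelled RML, and the labels do not tie libraries to dams or litters, so p-values below take each library as independent. Since PM2.5 was given to the dams, any littermates among the libraries count as separate replicates in the maternal comparisons and the interaction. Replicates are numbered as in the sample titles; the library names in the expression table number the OVA animals differently.

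SMAD proteins carry the signals of the transforming growth factor-beta (TGF-β) family from the membrane to the nucleus. Ligand-bound receptors phosphorylate receptor-regulated SMADs, Smad2 and Smad3 for TGF-β and activin and Smad1, Smad5 and Smad9 for bone morphogenetic proteins (BMPs), which join the common partner Smad4 and bind DNA. Smad6 and Smad7 are inhibitory SMADs, themselves induced by the pathway, and they recruit the HECT-type ubiquitin ligases Smurf1 and Smurf2 to receptors and SMADs. In the lung these routes are known for vascular homeostasis, airway remodelling and fibrosis.

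Values are RPM, the reads of a gene scaled to a fixed library total. Reads on genes numbered 13089691 to 17393579 in saline libraries, but 2298645 to 12185451 in Sham-OVA and 4324326 to 12355561 in PM-OVA libraries, so that 1 read was worth 0.0502 to 0.0688 RPM in saline libraries and up to 0.311 RPM in the shallowest, Sham-OVA replicate 3. PM-OVA replicates 3 and 4 were also shallow, at 0.133 and 0.182 RPM per read. Every OVA library had fewer reads on genes than every saline library. The part of this difference in depth between the groups was not tested. Lung-defining surfactant transcripts were abundant everywhere, Sftpc being at or above 6490 RPM in every library. Sham replicate 1 went against the female label: Xist was 0.289 RPM there and 174 to 1618 RPM in the other 22 libraries, while Ddx3y, a Y-linked gene, was 123 RPM there and at most 0.132 RPM elsewhere. It was kept in its labelled group. Without it all 10 genes still fell in Sham-OVA against Sham, by between 0.56 (Smad3) and 3.27 (Smad9) on the log2 scale.

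In the unchallenged lung the inhibitory arm was the most abundant. Per kb of the longest annotated transcript, Smad6 averaged 128 ± 35.3 RPM in Sham (SD, n = 7), followed by Smurf2 at 37.5 ± 8.05 and Smad7 at 34.3 ± 6.94. Smad4 came next with 25.6 ± 2.76, then Smad5 with 21.3 ± 1.39 and Smad3 with 18.0 ± 2.32 RPM per kb. Smurf1 (16.0 ± 1.14), Smad1 (11.8 ± 0.748), Smad2 (6.41 ± 0.651) and Smad9 (3.86 ± 0.501) were the lowest. Smad6 stood clear of all others, whereas the neighbours Smurf2 and Smad7 differed by less than the SD of both and Smad3 and Smurf1 by less than the SD of Smad3. The order in PM animals was the same at the top, with Smad6 at 116 ± 40.4 RPM per kb.

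At the authors' scaling to library total, every member of the family was lower after OVA challenge, in the offspring of both kinds of mother. In Sham-OVA against Sham all 10 genes passed an adjusted p of 0.05 as lower, where 47.5% of the 16795 genes tested did so (limma on log2(RPM + 0.5), Benjamini-Hochberg adjustment). In PM-OVA against PM all 10 were again lower, where 45.2% of genes were. The median log2 fold change of the 10 was -1.48 in Sham and -1.59 in PM offspring, beside -0.48 and -0.43 over all genes tested. By limma not 1 of them passed the far stricter threshold used by the study (adjusted p below 0.000001 and a log2 change beyond 1). The limma fits put 2.53% of genes past it as lower in Sham and 0.0238% in PM offspring. The study itself applied DESeq2 to raw counts. By DESeq2 5 of the 10 passed in Sham and 3 in PM offspring, where 15.0% and 6.25% of all genes passed as lower. By edgeR 2 and 0 did, where 2.66% and 0% of genes did. By limma without Sham-OVA replicate 3, the shallowest library, 4 did in Sham offspring (Smad6, Smad9, Smurf1 and Smurf2), where 12.6% of genes did. The summed RPM of the family was 1247 ± 195 in Sham (SD, n = 7), 1248 ± 196 in PM (n = 7), 444 ± 120 in Sham-OVA (n = 5) and 492 ± 226 in PM-OVA (n = 4). In Sham offspring the inhibitory SMADs, the SMURFs and Smad9 had the largest log2 changes, and in both cohorts Smad3 had the smallest.

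**Figure D1:**
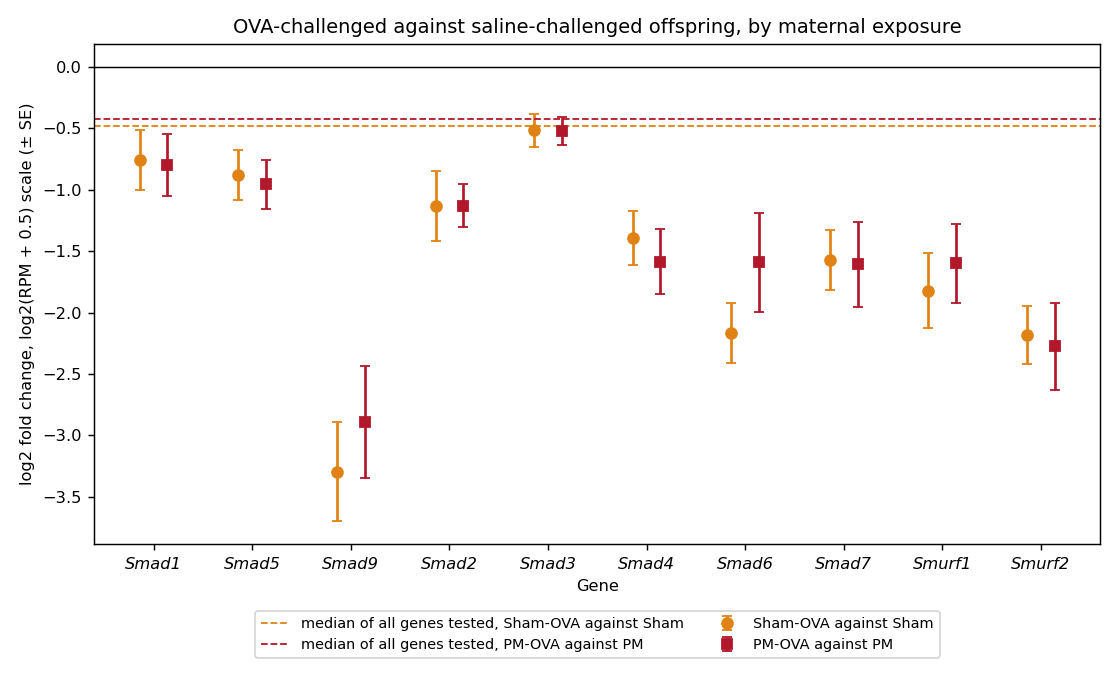
The log2 fold change of each gene after OVA challenge (y axis, log2(RPM + 0.5) scale, bars ± SE) in Sham offspring (circles) and PM offspring (squares), with dashed lines at the median of all 16795 genes tested. Every point lies below 0 and below its dashed line, from -0.52 for Smad3 to -3.30 for Smad9.

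The scale of these falls depended on how libraries were brought to a common total. With median-of-ratios scaling, in place of the authors' scaling to library total, the median change of all genes moved from -0.48 to -0.17 in Sham and from -0.43 to -0.13 in PM offspring. The share of called genes that were lower then went from 69.8% to 56.6% in Sham and from 69.2% to 55.3% in PM offspring. All 10 genes remained lower under that scaling, with Smad3 no longer called in either comparison and Smad1 no longer called in PM-OVA against PM. These are whole-lung RNA pools, in which fewer cells of a type and less RNA per cell cannot be told apart.

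The 4 genes with the largest falls in Sham offspring were Smad9, Smurf2, Smad6 and Smurf1, and the 250 bases before their annotated start sites are given here because members that moved together may be read side by side at that place. Capitals mark GGCGCC, the core of an element bound by BMP SMADs, and CAGAC, the SMAD box, searched on both strands (GTCTG on the other strand; GGCGCC reads the same on both, and the motifs can share at most 1 base). Sequences are from RefSeq (GRCm38.p6), run 5′ to 3′ with the gene and end at the base before the start; 7 of the 10 genes had an entry.
Smad9 (chr3:54755332-54755581, + strand): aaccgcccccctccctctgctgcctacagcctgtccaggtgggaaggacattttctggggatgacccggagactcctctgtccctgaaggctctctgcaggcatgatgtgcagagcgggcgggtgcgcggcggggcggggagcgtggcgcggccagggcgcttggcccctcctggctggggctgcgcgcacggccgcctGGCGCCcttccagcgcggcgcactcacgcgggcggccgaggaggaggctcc
Smurf2 (chr11:106920716-106920965, - strand): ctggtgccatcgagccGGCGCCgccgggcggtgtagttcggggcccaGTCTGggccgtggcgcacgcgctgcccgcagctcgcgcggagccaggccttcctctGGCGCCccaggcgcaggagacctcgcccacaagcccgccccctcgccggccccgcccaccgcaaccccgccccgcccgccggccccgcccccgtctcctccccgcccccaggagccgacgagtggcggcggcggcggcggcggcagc
Smad6 (chr9:64022060-64022309, - strand): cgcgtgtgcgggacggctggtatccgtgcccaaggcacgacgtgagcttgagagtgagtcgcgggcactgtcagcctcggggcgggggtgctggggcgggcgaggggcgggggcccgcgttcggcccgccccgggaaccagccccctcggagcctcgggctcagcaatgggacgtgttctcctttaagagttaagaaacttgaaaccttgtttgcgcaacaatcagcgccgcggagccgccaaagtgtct
Smurf1 (chr5:144965831-144966080, - strand): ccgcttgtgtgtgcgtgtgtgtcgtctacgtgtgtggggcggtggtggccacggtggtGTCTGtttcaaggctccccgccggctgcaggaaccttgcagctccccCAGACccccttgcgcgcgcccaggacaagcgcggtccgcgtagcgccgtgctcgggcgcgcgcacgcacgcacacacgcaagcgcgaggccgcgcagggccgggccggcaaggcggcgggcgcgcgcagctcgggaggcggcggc
GGCGCC occurred once before Smad9, 2 times before Smurf2 and not before Smad6 or Smurf1. CAGAC occurred 2 times before Smurf1, once on each strand, and once, on the reverse strand, before Smurf2. Over all 32851 windows of this length in the table, 9.59% held GGCGCC and 42.2% held CAGAC, so the match in each gene is a description only. The windows were rich in G and C, at 66.8% (Smad6) to 82.0% (Smurf2) against a median of 52.4%.

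Among the SMADs of BMP receptors, Smad9 (also called Smad8) was nearly lost. It ranged from 16.7 to 23.9 RPM in Sham, with a median of 21.5, and from 12.4 to 26.8 RPM in PM, with a median of 22.3. In Sham-OVA the libraries read 2.29, 2.11, 0, 2.23 and 4.09 RPM, and in PM-OVA 7.93, 4.10, 1.33 and 0.545 RPM. No OVA library reached the lowest saline library of its cohort. The share of all genes tested whose saline and OVA ranges also lay apart was not counted, here or for the members below. The zero was in the shallowest library, where a count of 0 allows up to 0.932 RPM (3 reads), and the other OVA values rest on 3 to 118 reads. The log2 change was -3.30 (SE 0.40) in Sham, limma adjusted p = 6.72e-06, and -2.89 (SE 0.45) in PM offspring, adjusted p = 2.45e-04. Only 1.14% of the genes tested had a lower log2 change in Sham and 1.55% in PM offspring.

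Smad1 and Smad5, the more abundant BMP SMADs, fell less. Smad5 was 125 to 155 RPM in Sham and 134 to 161 RPM in PM. The Sham-OVA libraries read 101, 77.2, 38.2, 89.5 and 93.0 RPM and the PM-OVA libraries 113, 98.1, 62.0 and 48.5 RPM, all below the lowest saline library. That was -0.88 (SE 0.20) in Sham and -0.95 (SE 0.20) in PM offspring on the log2 scale, with limma adjusted p of 0.00132 and 0.00128. Smad1 was 41.2 to 48.8 RPM in Sham and 42.0 to 67.2 RPM in PM. Its Sham-OVA values of 35.2, 29.1, 10.6, 33.8 and 31.8 RPM all lay below Sham, but 1 of the PM-OVA values of 48.4, 32.0, 22.97 and 15.3 RPM lay within the PM range. Smad1 changed by -0.76 (SE 0.24, limma adjusted p = 0.0122) and -0.80 (SE 0.25, adjusted p = 0.0146). It leaned on the shallow libraries: without Sham-OVA replicate 3 the Sham change was -0.45, and without PM-OVA replicate 4 the PM change was -0.53 with an adjusted p of 0.0528.

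The TGF-β and activin SMADs differed from each other in level and in size of change. Smad2 was 43.9 to 58.8 RPM in Sham and 51.4 to 58.7 RPM in PM. It read 35.8, 23.2, 8.08, 31.9 and 30.9 RPM in Sham-OVA and 37.6, 28.4, 18.2 and 20.3 RPM in PM-OVA, so saline and OVA libraries did not overlap. Its log2 change was -1.14 (SE 0.28, limma adjusted p = 0.00263) in Sham and -1.13 (SE 0.18, adjusted p = 2.35e-04) in PM offspring. Smad3 was 76.0 to 104 RPM in Sham and 88.2 to 106 RPM in PM. Its OVA values were the tightest of the family, at 65.7, 56.2, 77.4, 65.3 and 55.5 RPM in Sham-OVA and 76.5, 62.3, 59.6 and 63.7 RPM in PM-OVA. Of these, 1 Sham-OVA library, replicate 3, lay within the Sham range. Smad3 changed by -0.52 in both cohorts (SE 0.13 and 0.11, limma adjusted p = 0.00351 and 0.00157), next to the all-gene medians, and 48.7% and 46.3% of genes tested had a lower log2 change.

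Smad4, the partner shared by both routes, fell in both cohorts. It was 67.4 to 95.2 RPM in Sham, with a median of 90.4, and 86.3 to 96.9 RPM in PM, with a median of 94.4. It then read 45.3, 26.0, 16.8, 46.1 and 39.4 RPM in Sham-OVA and 58.9, 40.9, 21.9 and 16.7 RPM in PM-OVA. No OVA library overlapped the saline libraries of its cohort. The change was -1.39 (SE 0.22, limma adjusted p = 6.97e-05) in Sham and -1.59 (SE 0.27, adjusted p = 3.42e-04) in PM offspring.

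Smad6, the inhibitor best known for restraining BMP signalling and for its place in endothelium, was the most abundant member in saline lungs and, in Sham offspring, among those that fell most. Sham libraries ran from 239.8 to 564 RPM with a median of 370.5, and PM libraries from 106 to 466 RPM with a median of 379. Sham-OVA libraries read 89.2, 86.4, 42.9, 111 and 98.8 RPM, all below Sham. PM-OVA libraries read 194, 136, 65.1 and 68.5 RPM, and 2 of them lay above the lowest PM library, replicate 5. The log2 change was -2.17 (SE 0.24, limma adjusted p = 2.72e-06) in Sham and -1.59 (SE 0.40, adjusted p = 0.00399) in PM offspring. Without PM replicate 5, whose 106 RPM stood far under the 299 to 466 RPM of the other PM libraries, the PM change was -1.86.

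Smad7, the inhibitor of both routes, was 99.4 to 183 RPM in Sham and 85.9 to 236 RPM in PM, where replicate 5 was again lowest. It read 59.5, 49.6, 22.99, 75.8 and 49.7 RPM in Sham-OVA and 104, 59.0, 24.8 and 35.8 RPM in PM-OVA. All Sham-OVA libraries and 3 of the 4 PM-OVA libraries were below the lowest saline library. The change was -1.57 (SE 0.25, limma adjusted p = 6.03e-05) in Sham and -1.61 (SE 0.35, adjusted p = 0.00156) in PM offspring.

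Both SMURF ligases fell with the inhibitors that recruit them. Smurf2 was 123 to 239 RPM in Sham, with a median of 216, and 105 to 248 RPM in PM, with a median of 215. It read 49.3, 45.1, 21.1, 56.7 and 50.2 RPM in Sham-OVA and 82.2, 63.4, 23.1 and 23.1 RPM in PM-OVA, without overlap in either cohort. Its log2 change was -2.18 (SE 0.24, limma adjusted p = 2.17e-06) in Sham and -2.27 (SE 0.35, adjusted p = 2.32e-04) in PM offspring. Smurf1 was steadier before challenge, at 75.3 to 95.3 RPM in Sham and 77.0 to 92.6 RPM in PM. It read 41.7, 29.8, 7.46, 28.4 and 29.7 RPM in Sham-OVA and 52.7, 45.3, 16.2 and 13.3 RPM in PM-OVA, again without overlap. It changed by -1.82 (SE 0.30, limma adjusted p = 1.05e-04) and -1.60 (SE 0.32, adjusted p = 9.37e-04).

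**Figure D2:**
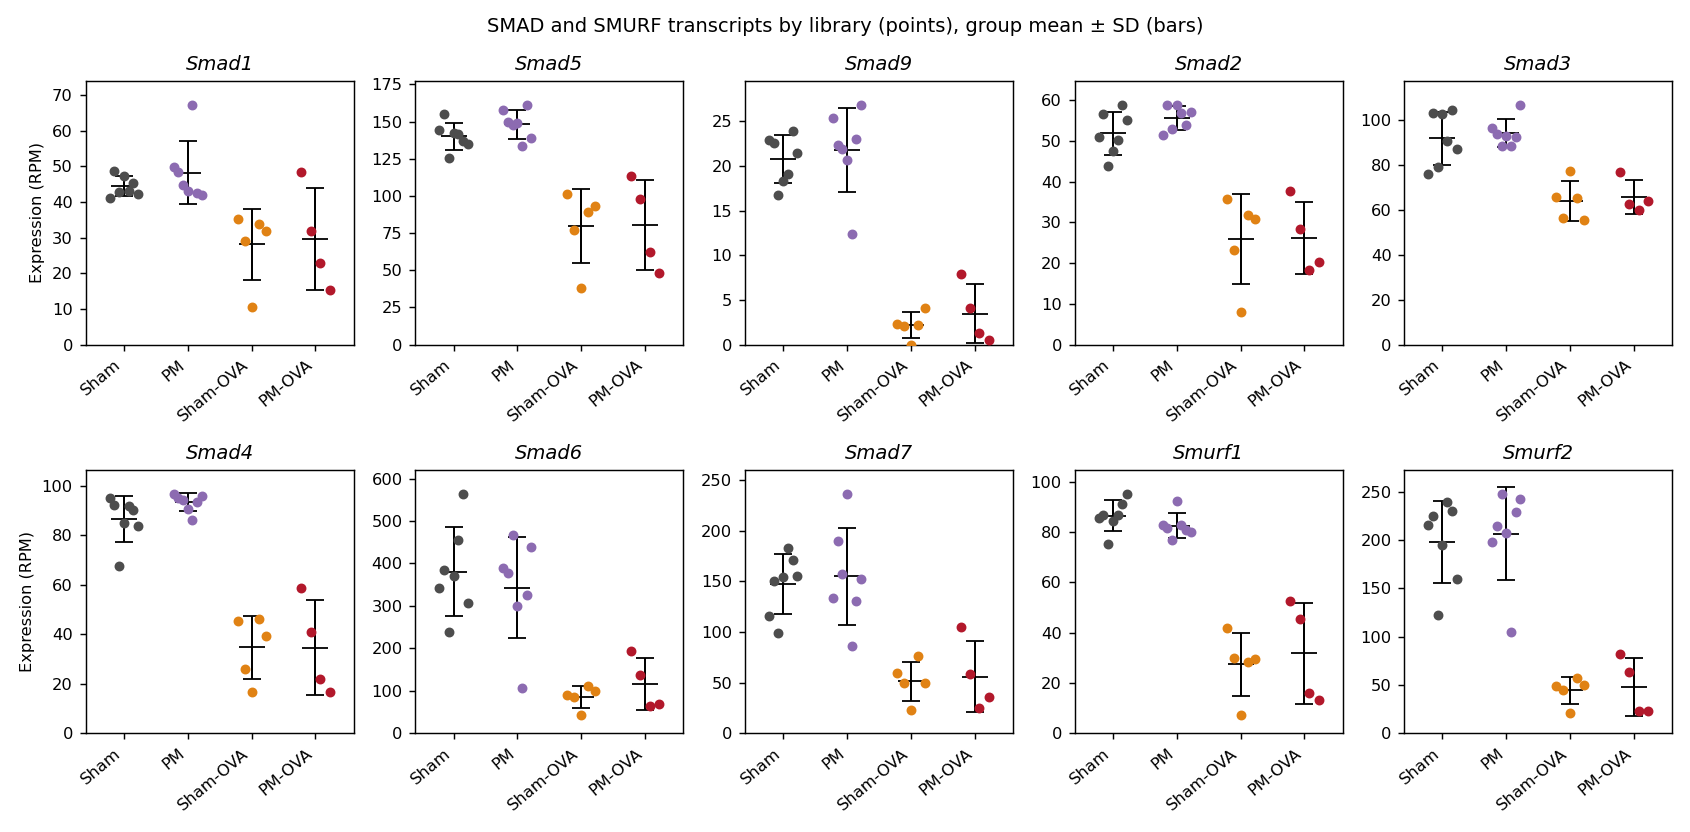
Expression of each gene (y axis, RPM, from 0) in every library of the 4 groups (x axis), each point a library and each bar the mean ± SD. OVA libraries sit below saline libraries in nearly every panel, the widest gap being in Smad9 (16.7 RPM or more in Sham, 4.09 RPM or less in Sham-OVA), and the lowest Sham-OVA point is replicate 3 in every panel but that of Smad3.

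The 3 shallow libraries were the lowest or near lowest OVA values for most members, and their part in the result was measured by leaving them out together. The Sham changes then ran from -0.45 (Smad1) to -2.77 (Smad9), and all 10 genes were called, where 47.2% of all genes were called as lower. The PM changes, which then rest on 2 PM-OVA libraries, ran from -0.27 (Smad1) to -1.81 (Smad9), with Smad4 at -0.92, Smad6 at -0.95, Smad7 at -0.92, Smurf1 at -0.75 and Smurf2 at -1.46. In that fit 8 of the 10 were called, Smad1 and Smad6 being those that were not, where 31.3% of all genes were called as lower.

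Because the members fell by different amounts, the make-up of the family changed, and this does not depend on library scaling. Smad6 made up 30.1% ± 3.74 of the family's summed RPM in Sham (SD, n = 7) and 19.2% ± 1.78 in Sham-OVA (n = 5), and their ranges did not overlap. In PM offspring it went from 26.6% ± 6.98 (n = 7) to 22.99% ± 1.90 (n = 4), and the ranges overlapped, PM replicate 5 being at 12.8%. Smurf2 went from 15.8% ± 1.71 to 9.90% ± 0.872 in Sham and from 16.3% ± 1.93 to 9.15% ± 1.99 in PM offspring, without overlap in either. Smad9 went from 1.68% ± 0.214 to 0.438% ± 0.301 and from 1.73% ± 0.195 to 0.585% ± 0.365, also without overlap. Smad5 took a larger share after challenge, 17.8% ± 1.66 against 11.4% ± 1.51 in Sham and 16.8% ± 2.16 against 12.1% ± 2.07 in PM offspring. Smad3 did too, at 16.2% ± 8.61 against 7.42% ± 0.866 and 15.1% ± 5.55 against 7.71% ± 1.40. For both genes the ranges did not overlap in Sham but did in PM offspring. There Smad5 reached 16.2% in PM and was as low as 14.6% in PM-OVA, and Smad3 10.7% and 9.86%. The Smad3 share ran from 11.5% to 31.5% in Sham-OVA, the highest being the shallow replicate 3. Smad4 and Smad7 held similar shares throughout, from 6.80% to 7.65% and from 10.8% to 12.3% on average.

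**Figure D3:**
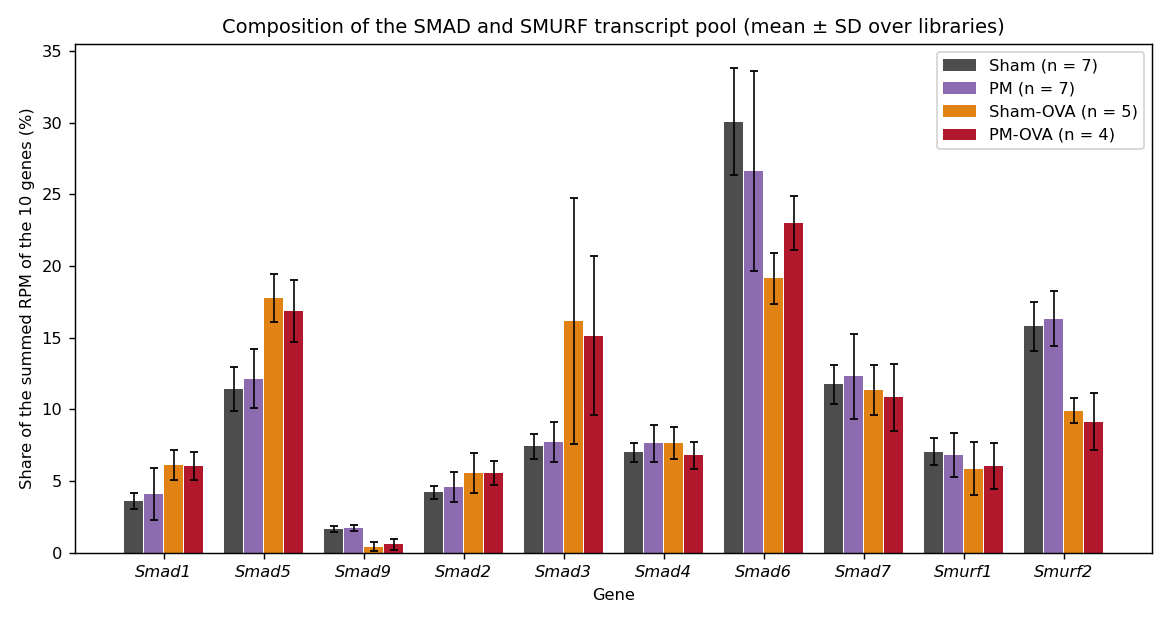
Share of the summed RPM of the 10 genes taken by each gene (y axis, percent, bars are means over libraries with SD) in the 4 groups. Smad6, Smurf2 and Smad9 take smaller shares and Smad5 and Smad3 larger shares in the OVA groups, for example 30.1% against 19.2% for Smad6 in Sham and Sham-OVA.

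Ratios between members within a library also differed between saline and OVA libraries, though not for every pair. On the log2(RPM + 0.5) scale, the log2 ratio of Smad6 to Smad1 was 2.47 to 3.62 in Sham and 1.33 to 1.97 in Sham-OVA. In PM offspring it was 0.65 to 3.37, the lowest being replicate 5, and 1.482 to 2.13 after OVA. The log2 ratio of Smad9 to Smad5 was -2.92 to -2.49 in Sham and -6.27 to -4.35 in Sham-OVA, where the lowest value belongs to the library without a Smad9 read. In PM offspring it was -3.38 to -2.35, and -5.55 to -3.76 after OVA. The log2 ratio of Smad7 to Smad2 overlapped, at 1.169 to 1.85 in Sham and 0.68 to 1.45 in Sham-OVA, and at 0.59 to 2.00 in PM and 0.44 to 1.46 in PM-OVA. That of Smad6 to Smurf2 averaged 0.93 ± 0.19 in Sham (SD, n = 7) and 0.94 ± 0.06 in Sham-OVA (n = 5). In PM offspring it was 0.66 ± 0.34 (n = 7) and 1.34 ± 0.21 (n = 4).

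Libraries that were low in Smad6 and Smurf2 without any challenge were also low in endothelial markers. The summed RPM of 10 endothelial genes was 2513 in PM replicate 5, where Smad6 was 106 and Smurf2 105 RPM, and 6070 to 7370 in the other PM libraries. In Sham replicate 3 it was 3633, with Smad6 at 239.8 and Smurf2 at 123 RPM, and the highest Sham sum, 7679, was in replicate 6, with Smad6 at 564 RPM. Per 1000 RPM of that sum, Smad6 was 53.8 to 73.5 RPM in Sham and 42.0 to 66.0 RPM in PM, and Smurf2 was 28.4 to 37.2 and 26.9 to 41.8 RPM. PM replicate 5 also had the highest PM sums of alveolar type 2 markers, 32545 RPM against 17589 to 20271, and of fibroblast markers, 7157 against 5411 to 6812. These measures were chosen after the values were seen.

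After OVA the endothelial sum was 4533 to 5542 RPM in Sham-OVA and 4557 to 6133 RPM in PM-OVA. The median went from 6112 RPM in Sham to 5118 in Sham-OVA and from 6886 RPM in PM to 5439 in PM-OVA. The Sham-OVA libraries lay within the Sham range, whereas 3 of the 4 PM-OVA libraries lay below all PM libraries but replicate 5. None of the 10 markers was at 0 throughout a group. Per 1000 RPM of endothelial sum, Smad6 was 8.38 to 20.1 RPM in Sham-OVA and 10.6 to 42.6 RPM in PM-OVA, and Smurf2 was 4.13 to 10.3 and 3.77 to 18.0 RPM. Neither Sham-OVA range met that of Sham, while the PM-OVA range for Smad6 reached just into that of PM. The 10 markers did not move as one: 4 were lower and 2 higher in Sham offspring, with a median log2 change of 0.09, and 4 were lower and 3 higher in PM offspring, with a median of 0.09. Over all genes tested 47.5% were lower and 20.6% higher in Sham, and 45.2% and 20.1% in PM offspring. Tek, an angiopoietin receptor, was lowest at -2.15 in Sham and Emcn, an endothelial sialomucin, highest at 1.13. Of the markers with the highest Sham means, Cdh5 was at -1.49 in Sham, while Pecam1, Plvap and Cldn5 were not called in either cohort. The sum after OVA thus depends on which markers weigh most in it.

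Markers of other cells moved with the challenge as well. The macrophage sum was 127 to 261 RPM in Sham and 1318 to 1947 RPM in Sham-OVA, and 212 to 333 in PM and 1137 to 1750 RPM in PM-OVA. C1qa alone averaged 71.8 RPM in Sham and 1085 RPM in Sham-OVA. Of the 8 macrophage markers 6 were higher in Sham and 5 in PM offspring, while 2, Marco and Siglecf, were lower in both. Beside these and the marker counts below, 47.5% of all genes were lower and 20.6% higher in Sham. In PM offspring the shares of all genes were 45.2% and 20.1%. The sum for B and plasma cells was 395 to 590.1 RPM in Sham and 7134 to 12592 RPM in Sham-OVA, and 465 to 610 in PM and 6817 to 11275 RPM in PM-OVA. Its 8 markers gave 5 higher and 1 lower in each cohort. The sum for alveolar type 1 cells was lower after OVA, 6259 to 9031 against 3916 to 5495 RPM in Sham and 7685 to 8215 against 4797 to 5689 RPM in PM offspring. Its 8 markers gave 6 lower in each cohort, with 1, Ager, higher in Sham and 0 higher in PM offspring. The fibroblast sum was also lower, 4664 to 6633 RPM in Sham against 1429.5 to 4105 in Sham-OVA and 5411 to 7157 RPM in PM against 1775 to 5242 in PM-OVA. Its 10 markers gave 5 lower in each cohort, with 1, Fbln1, higher in Sham and 0 higher in PM offspring. Among OVA libraries the fibroblast sum was lowest in Sham-OVA replicate 3 and in PM-OVA replicates 3 and 4. These were the 3 shallow libraries in which most members were low. The fibroblast sum was highest in PM-OVA replicate 1. The alveolar type 2 sum was higher, 14470.5 to 25275 RPM in Sham against 30995.5 to 37783 in Sham-OVA. In PM offspring its ranges overlapped, at 17589 to 32545 RPM in PM and 25162 to 44585 in PM-OVA. Sftpc alone averaged 10058 RPM in Sham and 22195 RPM in Sham-OVA. The 8 alveolar type 2 markers were split, 3 being lower and 3 higher in each cohort, with median log2 changes of 0.05 and 0.01. The part of cell make-up in the falls of the SMAD and SMURF transcripts was not tested.

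**Figure D4:**
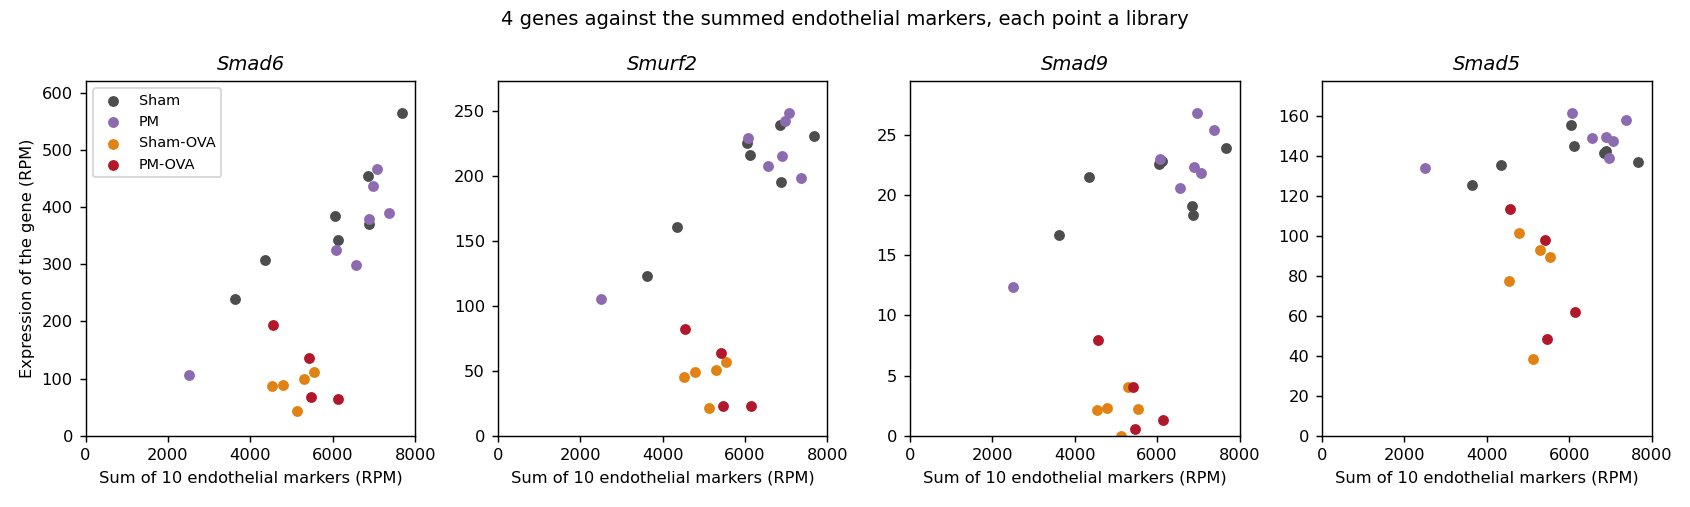
RPM of Smad6, Smurf2, Smad9 and Smad5 (y axes) against the summed RPM of 10 endothelial markers (x axis), each point a library coloured by group. Saline libraries with a low sum, such as PM replicate 5 at 2513, are low in Smad6 (106 RPM) and Smurf2 (105 RPM), while OVA libraries at 4533 to 6133 lie below saline libraries of similar sum. The part of endothelial content in the falls was not tested.

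Long transcripts were lower after OVA across the whole transcriptome, and most members are long. With genes split by transcript length into 5 equal bins, the median log2 change ran 0.15, -0.19, -0.47, -0.67 and -1.05 from the shortest to the longest in Sham, and 0.17, -0.13, -0.40, -0.64 and -1.02 in PM offspring. The longest annotated transcripts of the members were 2.97 kb (Smad6) to 8.09 kb (Smad2). With the trend in length and GC content taken out of each library, Smad6 was at -2.53 in Sham and -2.04 in PM offspring, Smurf2 at -1.69 and -1.77, Smad9 at -2.83 and -2.42 and Smad4 at -1.33 and -1.53. Smad5 was then at -0.18 and -0.22 with limma adjusted p of 0.333 and 0.192, no longer called. In Sham offspring Smad2 (-0.34, adjusted p = 0.220) and Smad3 (-0.29, adjusted p = 0.0590) were not called either. The falls of Smad5 and Smad2 were thus near those of other genes of their length, and those of Smad6, Smurf2 and Smad9 were further from them.

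**Figure D5:**
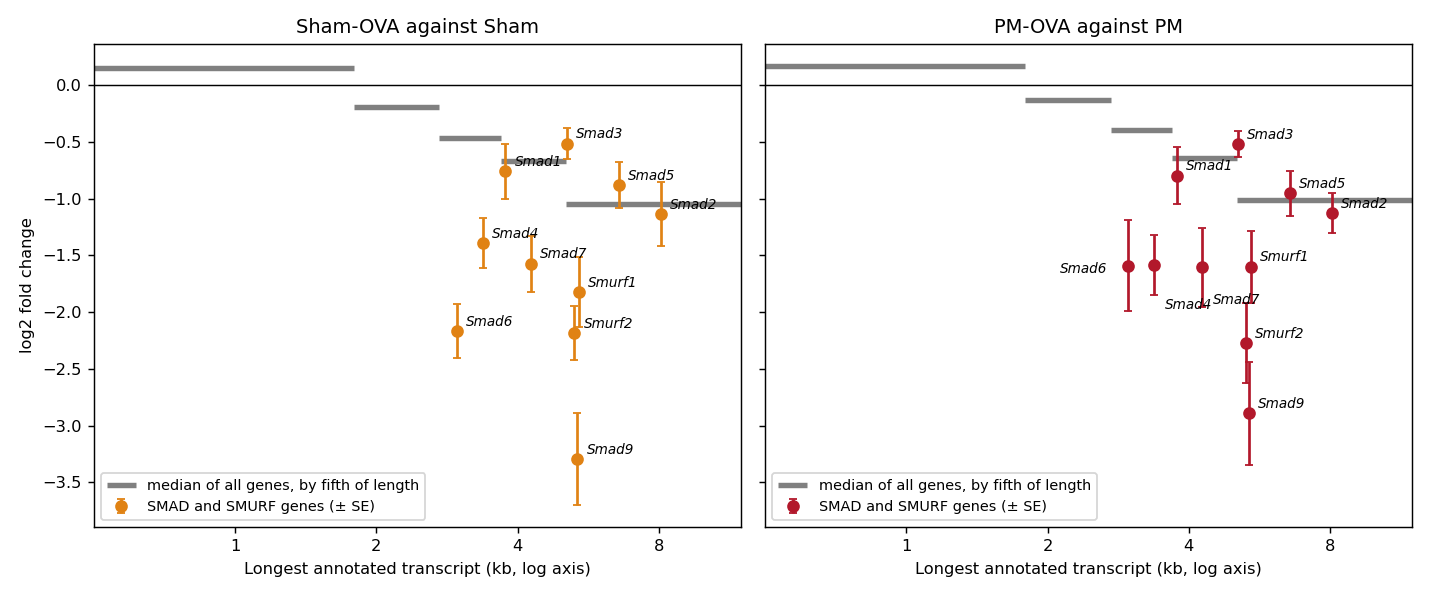
The log2 fold change after OVA (y axis) against the length of the longest annotated transcript (x axis, kb, log axis) for the 10 genes (points, ± SE), with grey segments at the median of all genes in each of 5 length bins, drawn between 0.5 and 12 kb. Smad5 and Smad2 lie near the segment of the longest bin (-1.05 in Sham), while Smad6, at 2.97 kb, lies far below its own.

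Maternal exposure alone was not accompanied by a detectable change in any member. In PM against Sham 0 of the 10 genes were called, where 0% of the 16795 genes were. Over all genes 731 had an unadjusted p under 0.05 with limma, and DESeq2 and edgeR also called 0. The smallest p was that of Smad4, at 0.126 by limma before adjustment, with a log2 difference of 0.12 (95% interval -0.04 to 0.27), and the other differences ran from -0.22 (Smad6) to 0.10. Among challenged animals, PM-OVA against Sham-OVA again called 0 of the 10, where 0% of genes were (313 with an unadjusted p under 0.05; DESeq2 called 1 gene and edgeR 0). The smallest p was that of Smad6, at 0.383 by limma before adjustment, with a log2 difference of 0.35 (95% interval -0.51 to 1.21), so that a difference of more than 2-fold was not excluded by these 9 libraries. Other differences ran from -0.08 (Smad4) to 0.45 (Smad9).

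The size of the OVA response was compared between the offspring of the 2 kinds of dams with an interaction term over all 4 groups. It called 0 of the 10 genes, where 0% of genes were (854 with an unadjusted p under 0.05; DESeq2 called 2 genes and edgeR 0). The smallest p was that of Smad6, at 0.244 by limma before adjustment, with a log2 difference between the responses of 0.57 (SE 0.48, 95% interval -0.42 to 1.57), its fall being smaller in PM offspring. Without PM replicate 5 the Smad6 falls were -2.17 and -1.86. Differences for the other genes ran from -0.20 (Smad4) to 0.40 (Smad9). This call depended on the fit: with libraries weighted by their estimated quality 7 genes were called, all with a larger fall in PM offspring, and without the 3 shallow libraries 1 was, Smurf1, with a smaller fall in PM offspring. The same fits moved the count over all genes: the weighted fit called 3965 genes on the side of a larger fall and 651 on the other, 23.6% and 3.88% of those tested, and the fit without shallow libraries called 109 and 612, or 0.649% and 3.64%.

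The rest of the pathway moved in the same direction more often than not, over lists of ligands, receptors, regulators and targets chosen with earlier results of these data known. Of 133 genes listed, 121 were tested. In Sham offspring 72 were lower and 17 higher, beside 47.5% and 20.6% of all genes, and in PM offspring 70 were lower and 14 higher, beside 45.2% and 20.1%. The median log2 change over the lists was -0.78 in Sham and -0.81 in PM offspring, against all-gene medians of -0.48 and -0.43. The genes named below passed an adjusted p of 0.05 in both cohorts (limma), with standard errors from 0.15 (Tgfb1) to 0.54 (Usp9x) on the log2 scale.

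Among the TGF-β and activin ligands and the proteins that hold them latent or release them, 9 of 14 were lower and 1 higher in each cohort. Tgfb1, the main immune isoform of TGF-β, was the one that rose, by 0.95 in Sham and 0.82 in PM offspring on the log2 scale. Ltbp4, which holds latent TGF-β in the matrix, changed by -1.90 and -1.50. Of 11 BMP and GDF ligands 5 were lower and 2 higher in Sham, and 6 lower and 1 higher in PM offspring. These counts stand beside 47.5% and 20.6% of all genes in Sham and 45.2% and 20.1% in PM offspring. Bmp6 fell most, at -2.71 and -2.52, and Gdf10 rose, at 0.52 and 0.88.

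Receptors and coreceptors fell almost throughout. In Sham offspring 13 of 14 were lower, with a median of -1.53, and in PM offspring 12 of 14 were, with a median of -1.31. Tgfbr2, the type II TGF-β receptor, changed by -2.32 and -2.37. Amhr2, the receptor of anti-Müllerian hormone, was the one that rose, at 1.11 and 1.07. Of 10 extracellular antagonists 6 were lower and 0 higher in each cohort, with medians of -0.78 and -0.68.

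Inside the cell, 17 of 25 SMAD anchors, partners and coregulators were lower in each cohort, with 3 higher in Sham and 2 in PM offspring. Sp1, a transcription factor that works with SMADs, was at -2.84 and -2.67, and Hgs, an endosomal adaptor, at 1.36 and 1.40. Among 17 other ligases and deubiquitinases of SMADs 10 were lower and 3 higher in each cohort. Usp9x, the deubiquitinase of Smad4, changed by -5.40 and -4.70, and Stub1, a ligase also known as CHIP, by 1.76 and 1.68.

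Target genes of the SMADs went in both directions, as did all genes tested. Of all genes, 47.5% were lower and 20.6% higher in Sham, and 45.2% and 20.1% in PM offspring. Of 10 textbook BMP targets 4 were lower and 3 higher in Sham, and 2 lower and 3 higher in PM offspring, with medians of -0.35 and 0.02. Msx1, a homeobox gene, was at -1.35 and -1.43, and Junb, an AP-1 subunit, at 1.40 and 1.28. Of 20 textbook TGF-β targets 8 were lower and 4 higher in Sham, and 8 lower and 3 higher in PM offspring, with medians of -0.22 and -0.53. Cdh2, N-cadherin, changed by -3.11 and -3.31 and Bhlhe40, a helix-loop-helix repressor, by 1.42 and 1.41.

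Over all 23 libraries, in which saline and OVA libraries stood apart, the profiles closest to each member by Pearson correlation of log2(RPM + 0.5) were those of genes that fell as well. Smad6 was nearest to Acvrl1 (r = 0.990), the endothelial receptor ALK1 for BMPs, and to Ednrb (r = 0.984), an endothelin receptor, which changed by -1.54 and -2.15 in Sham offspring. Smad7 was nearest to Dlc1 (r = 0.976) and Tmem64 (r = 0.973). Smad9 was nearest to Tjp1 (r = 0.992), the tight junction protein ZO-1, and to Mrs2 (r = 0.991). Smurf2 was nearest to Enpp4 (r = 0.993) and Arhgap31 (r = 0.992), and Smurf1 to Slmap (r = 0.994) and Arid4a (r = 0.994). Smad4 was nearest to B230219D22Rik (r = 0.992) and Ptprm (r = 0.991), Smad5 to Rnft1 (r = 0.991) and Pnpla8 (r = 0.989), Smad2 to Gopc (r = 0.990) and Qrich1 (r = 0.989) and Smad1 to Smarcb1 (r = 0.976) and Pgs1 (r = 0.974). Smad3 had the weakest nearest matches, Pln (r = 0.937) and Gm9887 (r = 0.936). These values describe the same 23 libraries that showed the falls, and no test was made on them.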

How the data were processed

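The depositors gave one table of gene values per library. Per the labels and the methods, RNA was made into Illumina stranded mRNA libraries, base calls were made with bcl2fastq, and reads were trimmed with Trimmomatic, mapped to GRCm38 (mm10) with Bowtie2 and SAMtools, and counted in SeqMonk. The strand setting of the counting is not given in the sources used here. Of annotated genes only 2 small ones overlap exons of a member, on the same strand, and neither has a row. The table is named for RPKM, but the deposited values are RPM: the authors scaled reads per gene to each library's total without gene length. All of the values (100%) came out as whole reads within 0.02 of a read. 1 symbol that is no member is listed 2 times.

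A gene was tested if 4 or more libraries held 0.5 RPM or more of it (16795 genes). These were fitted with limma 3.58.1 (R 4.3.3) on log2(RPM + 0.5) with a mean-variance trend, using only the groups compared and all 4 for the interaction. Both comparisons with OVA-challenged animals have separate saline controls, but each group also enters a maternal comparison. Fold changes on this scale understate those of low genes. Benjamini-Hochberg adjustment ran over all genes tested. edgeR 4.0.16 and DESeq2 1.42.0 on recovered reads were alternatives, as were pseudocounts of 0.1 and 1, no filter, other scalings, array weights, a replicate block, removal of the length and GC trend (16535 genes with a length, 98.5%) and leaving out libraries. Scripts ran in Python 3.11.15 with matplotlib 3.10.9 and were tested on simulated data. Floors for counts cover counting error only. Intervals on log2 differences were built from the limma standard errors, which rest on the spread between libraries. Lengths and coordinates are from GENCODE M21.

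The members and gene lists were chosen with earlier results of these data known. Every member was named in the OVA comparisons, and in each other comparison the member of lowest p. In each pathway list the gene with the largest rise and the one with the largest fall were named among those called with the same sign in both cohorts, and for likeness the 2 nearest genes to a member. 1 gene that this rule picks is not reported here.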

Additional observations from a re-analysis of the deposited data

Results flagged for a closer look

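In 40 sets of one gene in one group, the highest or lowest library was compared with the rest of its group by Dixon's gap, which chance alone flags in about 1 in 20 groups. It marked 12. Sham-OVA replicate 3, the shallowest library, was low for 6 genes: Smad1 at 10.6 RPM (29.1 to 35.2 in the other Sham-OVA libraries), Smad5 at 38.2 (77.2 to 101), Smad6 at 42.9 (86.4 to 111), Smad9 at 0 (2.11 to 4.09), Smurf1 at 7.46 (28.4 to 41.7) and Smurf2 at 21.1 (45.1 to 56.7). Its Smad3, at 77.4 RPM, was the highest of its group.

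PM replicate 5, the library low in endothelial markers, stood apart for 4 genes. Smad6 was 106 RPM (299 to 466 in the other PM libraries), Smurf2 105 (198 to 247.9) and Smad9 12.4 (20.6 to 26.8), all low, while Smad1 was high at 67.2 (42.0 to 49.7). In Sham replicate 3, also low in endothelial markers, Smad4 was 67.4 RPM against 83.9 to 95.2 in the other Sham libraries. Smurf1 in PM replicate 4 was 92.6 RPM against 77.0 to 83.0 in the other PM libraries.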

How the results depend on the processing

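No member changed direction in either OVA comparison under any alternative run. The Smad3 change, however, came as near to 0 as -0.03 in Sham and -0.13 in PM offspring. All 10 were called in Sham offspring under every fit that left out 1 library, where 45.4% to 48.5% of all genes were called as lower. DESeq2 called 9 and edgeR 8 there, beside 38.1% and 33.8% of all genes as lower. With median-of-ratios and quantile scaling 9 and 9 were called, beside 38.1% and 34.6% of all genes as lower. With the length and GC trend removed 7 were called, beside 46.2% of all genes as lower. In PM offspring DESeq2, edgeR and both scalings called 8, where 30.3% to 35.7% of all genes were called as lower. Removal of the trend called 9, beside 44.3% of all genes as lower. Fits without 1 library called 9 or 10, the exception being Smad1 without PM-OVA replicate 4, where 38.6% to 50.5% of all genes were called as lower. The count of members past the study's threshold was less stable: against 0, it was 6 in Sham offspring with array weights, 5 with DESeq2, 4 without the 3 shallow libraries, 2 with edgeR, 2 with quantile normalisation, 1 with median-of-ratios scaling and 1 with all 4 groups in one fit. The count of all genes passing as lower moved as well, from 425 to 2978 with array weights, 2512 with DESeq2 and 2124 without the 3 shallow libraries. It was 447 with edgeR, 786 with quantile normalisation, 516 with median-of-ratios scaling and 955 with all 4 groups in one fit. Leaving out 1 library gave 0 to 4 members, the 4 being without Sham-OVA replicate 3 (Smad6, Smad9, Smurf1 and Smurf2). In PM offspring 5 members passed with array weights and 3 with DESeq2, where 12.1% and 6.25% of all genes passed as lower. Array weights also gave 7 members in the interaction, in a fit that called 3965 genes lower and 651 higher, and turned the Smad6 difference to -0.11 in PM-OVA against Sham-OVA and to -0.29 in the interaction; 1 member was called in the interaction without the 3 shallow libraries. The causes were not tested.

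Replicate numbers in the titles are shared between groups, but nothing in the labels ties them to a litter or day. Same-numbered libraries correlated in their deviations by -0.10 to 0.12 across OVA and saline groups, -0.25 to 0.10 between PM and Sham and between PM-OVA and Sham-OVA by 0.60, 0.22, 0.62 and -0.31. By the numbers in the library names the last were -0.63, 0.29 and -0.16, and -0.07 to 0.15 across OVA and saline groups, so neither numbering paired the libraries throughout. With a replicate block 10 members were called in Sham offspring and 8 in PM offspring, beside 42.4% and 33.9% of all genes as lower. In PM offspring Smad1 was then at -0.76 (limma adjusted p = 0.0537) and Smad3 at -0.50 (adjusted p = 0.0608). Depth limits the low values of the OVA libraries, above all Smad9.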
